A study of Homo sapiens with 8 samples.

Results

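Described here are 6 genes with many m6A peaks on the chromosome-associated RNA of wild-type HEK293T cells. Their peaks were mostly or solely in the wild-type list, with few or none in the list from METTL3-knockout cells. They are ULK4, PTPRD and KCNT2, which encode proteins, and the long noncoding RNA genes LINC01036, LOC105371657 and LOC102724858. The members were chosen by their numbers of called peaks: 11 or more in wild type over the RefSeq bounds (GRCh38), and few or none in the knockout. The rule sets no number for few, and some non-members with 11 or more wild-type peaks also had few knockout peaks. The members are 6 of the 309 genes with 11 or more wild-type peaks, and of 12198 protein-coding or long noncoding genes with a peak in either list. Both lists together placed 111 peaks over them, 106 of 29084 wild-type and 5 of 23937 knockout peaks. HEK293T is an established human embryonic kidney cell line. The wild-type group is the parental line and the knockout group is METTL3-/- HEK293T, and no treatment is named for either. Each genotype has 2 IP and 2 input samples, and each genotype's peaks were deposited as 1 list without values per replicate. Differences between the lists therefore have no replicate check, and no test of genotype was possible. The labels do not say whether the knockout line is a single clone. The lists hold peaks and no expression levels, so markers of the cell type could not be checked.

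N6-methyladenosine (m6A) is a methyl mark that the METTL3 and METTL14 complex writes on nascent RNA, and it is read in the nucleus and the cytoplasm by YTH-domain and other proteins. In chromosome-associated RNA, which is rich in unspliced transcripts, the antibody can enrich introns and noncoding RNA as well as exons. ULK4 is a member of the ULK family of kinases that lacks normal kinase activity. PTPRD is a receptor-type protein tyrosine phosphatase that organises synapses, and KCNT2 (also called SLICK) is a sodium-activated potassium channel. Both are best known from neurons. No role is given here for the 3 noncoding genes.

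The targeted gene was looked at first. METTL3 (chromosome 14, 21498138 to 21511340) had 2 wild-type and 0 knockout peaks, both on the minus strand, which is its own. A list holds only what passed the peak caller, so the absence of a peak means that no peak was called there, and not that RNA or methylation was absent. In these bulk samples less RNA from a locus, fewer cells that transcribe it and less methylation cannot be told apart.

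Start sites were compared with the peaks first, for the members that have an entry in the RefSeq promoter table (GRCh38.p14). These were 2 of the 6, KCNT2 with 1 start and PTPRD with 3, and the 4 windows are shown because the peaks sit very differently against them. Each window runs 5′ to 3′ on the minus strand, from 250 bases before the start to 50 after it, and capitals mark the GC box GGGCGG on either strand. The KCNT2 window is chr1:196608391-196608690. The 3 PTPRD windows, from the far upstream start to the one nearest the end of the gene, are chr9:10612953-10613252, chr9:8779342-8779641 and chr9:8733897-8734196.

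KCNT2 start: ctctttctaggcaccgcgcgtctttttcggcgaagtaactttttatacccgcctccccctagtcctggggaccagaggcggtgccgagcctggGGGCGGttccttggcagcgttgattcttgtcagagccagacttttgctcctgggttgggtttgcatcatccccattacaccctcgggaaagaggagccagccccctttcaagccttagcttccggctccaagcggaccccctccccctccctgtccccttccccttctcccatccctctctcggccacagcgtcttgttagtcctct

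PTPRD far start: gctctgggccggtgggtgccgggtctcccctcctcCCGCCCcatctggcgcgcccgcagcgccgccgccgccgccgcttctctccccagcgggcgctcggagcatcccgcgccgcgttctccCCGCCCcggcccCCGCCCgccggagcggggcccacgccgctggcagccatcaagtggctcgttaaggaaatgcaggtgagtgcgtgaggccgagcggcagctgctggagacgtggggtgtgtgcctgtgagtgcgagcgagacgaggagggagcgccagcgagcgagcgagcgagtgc

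PTPRD middle start: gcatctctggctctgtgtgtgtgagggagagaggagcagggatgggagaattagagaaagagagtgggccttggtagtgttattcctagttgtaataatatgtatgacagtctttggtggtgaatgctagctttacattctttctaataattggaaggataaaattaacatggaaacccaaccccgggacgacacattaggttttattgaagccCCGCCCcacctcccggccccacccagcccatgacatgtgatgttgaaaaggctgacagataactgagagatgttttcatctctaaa

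PTPRD near start: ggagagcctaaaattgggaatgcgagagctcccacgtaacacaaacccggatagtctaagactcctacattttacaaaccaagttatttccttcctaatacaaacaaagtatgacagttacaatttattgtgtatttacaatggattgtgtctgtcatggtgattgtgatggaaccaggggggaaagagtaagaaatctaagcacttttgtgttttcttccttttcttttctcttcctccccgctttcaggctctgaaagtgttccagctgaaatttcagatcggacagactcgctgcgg

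A peak sat close to the KCNT2 start. The wild-type peak at 196608095 to 196608310 had its summit 218 bases downstream of that start, and the other 12 of the 13 KCNT2 peaks lay further downstream. In PTPRD the far start at 10613002 was 1370404 bases from the nearest wild-type summit, although all 17 peaks were downstream of it. The middle start at 8779391 had 14 peaks downstream and 3 upstream, and the near start at 8733946 had 12 downstream and 5 upstream. The nearest summits to these starts were 19608 bases downstream and 6053 bases upstream. No PTPRD peak thus lay at a listed start, and 3 peaks were upstream of both internal starts.

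The windows also differed in composition. The far PTPRD window held 40 CpG dinucleotides, at percentile 93.3 of 35116 promoter windows of the same length, whose median was 14. The KCNT2 window held 15, and the middle and near PTPRD windows 4 and 7. The GC box GGGCGG was found 3 times in the far PTPRD window, 1 time each in the KCNT2 and middle PTPRD windows and 0 times in the near one, and 45.0% of all windows hold it on either strand. The TATA box TATAAA occurred 1 time in KCNT2 (11.5% of all windows), CCAAT 1 time each in the middle and near PTPRD windows (34.6%), and GGACT 2 times in KCNT2 (44.2%). All were searched on both strands, and no matches of different motifs overlapped. A match describes these letters only.

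The numbers of peaks are those that chose the members and are given without a test. ULK4, on chromosome 3 from 41246599 to 41962103, had 33 wild-type and 5 knockout peaks. LOC105371657 (chromosome 1, 189149763 to 189603580) had 20 and 0, and PTPRD (chromosome 9, 8314246 to 10613002) had 17 and 0. KCNT2 (chromosome 1, 196225779 to 196608440) had 13 and 0, LINC01036 (chromosome 1, 187092842 to 187360244) had 12 and 0, and LOC102724858 (chromosome 8, 76133273 to 76308620) had 11 and 0. ULK4 was thus the only member with a knockout peak. Knockout peaks made up 4.50% of the members' peaks (95% Clopper-Pearson interval 1.48 to 10.2, counting error only). In the other 303 genes with 11 or more wild-type peaks they made up 42.1% (41.1 to 43.2), and 45.1% of all peaks in both lists.

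**Figure D1:**
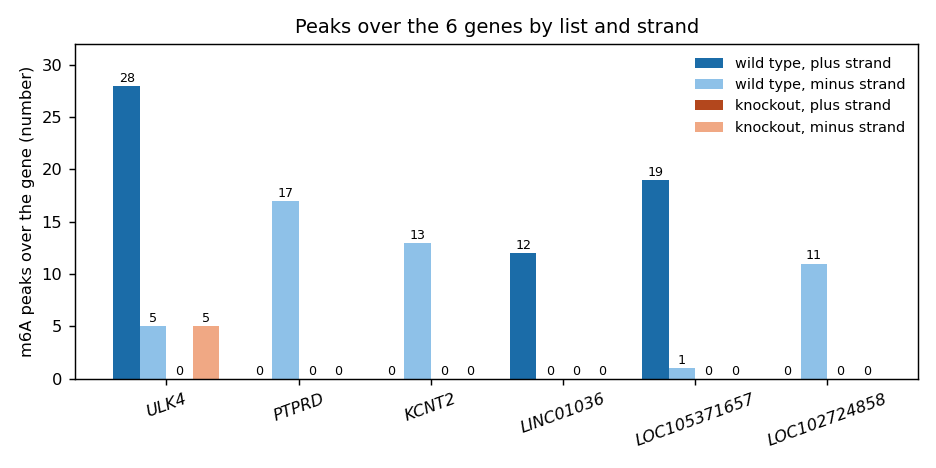
Number of m6A peaks over each of the 6 genes (vertical axis), as 4 bars per gene for the wild-type and knockout lists and the plus and minus strands, with no replicates and so no error bars. The knockout bars are at 0 except for the 5 minus-strand peaks of ULK4, whose 28 plus-strand peaks are all in wild type.

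The place of the members among all genes follows from the rule and is a description. Of the 309 genes with 11 or more wild-type peaks, 1.62% (5 genes) had no knockout peak, and these were the 5 members other than ULK4. A knockout share of at most 20% was found in 7.12% (22 of 309). Over the 303 others the share had a median of 42.1%, with quartiles of 33.3% and 47.9%. Among the non-members of low share were TENM1, a teneurin adhesion receptor (42 wild-type and 1 knockout peaks), STPG2 (12 and 1), ANKS1B (17 and 2) and LINC02456 (11 and 2). STPG2 had its 10 minus-strand peaks in wild type alone, and the 1 knockout peak of TENM1 lay on the strand opposite to its 42. ULK4, with a share of 13.2%, stood between ANKS1B (10.5%) and LINC02456 (15.4%). The non-members TENM1, STPG2 and ANKS1B thus had 11 or more wild-type peaks and a lower knockout share than ULK4.

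Just outside the rule were 7 genes with 8 to 10 wild-type peaks and 0 knockout peaks. LOC105373592 and MARCHF1, a membrane-bound ubiquitin ligase, had 10 wild-type peaks each. KDM2A, a histone demethylase, and LINC02315 had 9 each. TTN, DNAJC21 and MIR4435-2HG had 8 each. The 8 TTN peaks were on the plus strand, antisense to TTN, which is a minus-strand gene in the promoter table. MARCHF1 had 6 peaks on its own minus strand and 4 on the plus strand. The rest of these genes that have a strand in that table had most peaks on their own strand. The smallest members, LOC102724858 with 11 and LINC01036 with 12, are set apart from these genes by 1 to 4 peaks.

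**Figure D2:**
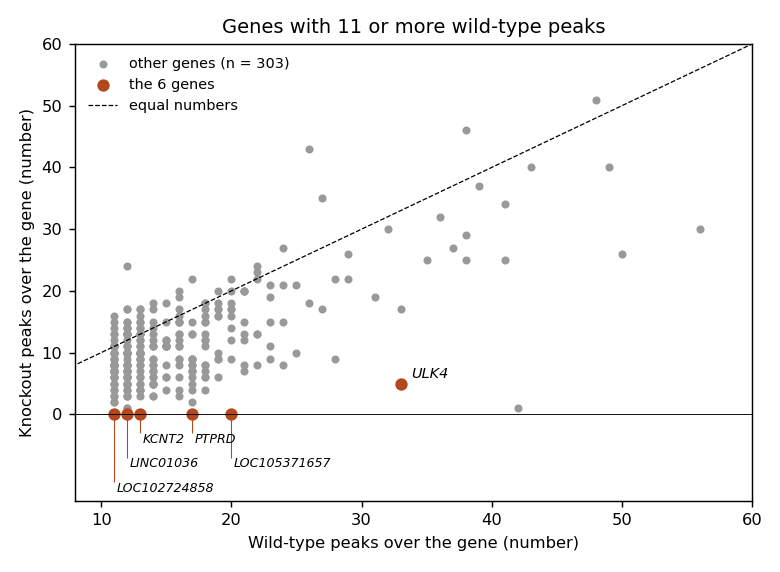
Knockout peaks (vertical axis) against wild-type peaks (horizontal axis) over each gene with 11 or more wild-type peaks, 303 others in grey and the 6 in orange, with a dashed line of equal numbers. The 5 members with 0 knockout peaks lie on the horizontal line, and ULK4 lies at 33 and 5.

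Strand divided the ULK4 peaks in a way that the whole-gene count hides. Of its 33 wild-type peaks 28 were on the plus strand and 5 on the minus strand, and all 5 knockout peaks were on the minus strand. ULK4 itself is transcribed from the minus strand (background knowledge, since the promoter table has no ULK4 entry). On the strand of the gene the lists therefore held 5 peaks each, and the surplus in wild type came entirely from peaks antisense to ULK4. The name ULK4 gives the place of these peaks and not the transcript that carries them. A main strand opposite to the gene was uncommon, at 7 of the 257 genes with 11 or more wild-type peaks and a strand in the promoter table (2.72%, 95% interval 1.10 to 5.53). PTPRD and KCNT2, both minus-strand genes in that table, had all their 17 and 13 peaks on their own strand.

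Nearly all member peaks were on a single strand per gene. LINC01036 had 12 of 12 on the plus strand, LOC105371657 19 of 20 on the plus strand, and LOC102724858 11 of 11 on the minus strand. Counted together, 100 of 106 wild-type peaks (94.3%, 95% interval 88.1 to 97.9) were on the main strand of their gene, meaning the strand with most of its wild-type peaks. Without ULK4 the share was 98.6%, and in the 303 other genes it was 96.4% (95.8 to 96.9). Knockout peaks on the main strands numbered 0 in all 6 genes.

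The plus-strand peaks of ULK4 formed a compact block. They ran from 41394060 to 41669261, a span of 275 kb that covers 38.5% of the 716-kb gene, and left 147 kb empty on the low side and 293 kb on the high side. With the gene divided into 5 equal parts from the low coordinate, 21 of the 28 peaks lay in the second and 7 in the third. Their median spacing from summit to summit was 3352 bases, against 14288 bases in the 303 other genes. The peak of highest fold in ULK4 lay at 41511067 to 41511584, with a fold over input of 14.4 on 34 IP reads. It was followed by 41581643 to 41581867 with 14.3 on 27 reads and 41558514 to 41558722 with 11.1 on 21 reads. All 3 are on the plus strand.

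The minus-strand peaks of ULK4 were few in both lists. In wild type the 5 had folds from 4.36 to 9.87 and from 7 to 20 IP reads. The knockout peaks lay at 41347510 to 41347709 (fold 5.51, 12 reads), 41504155 to 41504391 (8.60, 20 reads), 41506591 to 41506790 (5.90, 13 reads), 41748648 to 41748879 (10.1, 26 reads) and 41840391 to 41840590 (5.90, 13 reads). Folds were not compared between the lists, whose depths differ. No knockout peak coincided with a wild-type one, since the nearest wild-type summits on that strand were between 25078 and 66662 bases away. Of the minus-strand peaks, 4 of the 5 in the knockout and 2 of the 5 in wild type stood on the lowest local input of their list.

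The other members differed in how their peaks were spread. In PTPRD, which spans 2299 kb, the peaks ran from 8330115 to 9242670, over 39.7% of the gene. Of 5 equal parts from the low coordinate, which is the end of this minus-strand gene, the first held 14 peaks, the second 2 and the third 1, and the 1370 kb nearest the far start held 0. In KCNT2 the peaks ran over 99.8% of the 383-kb gene, from 0.672 kb inside the low bound to 0.13 kb inside the high one, with 3, 5, 3, 1 and 1 peaks in 5 successive parts of equal length. The KCNT2 peaks thus reached both ends of the gene, but more of them lay towards its low-coordinate, downstream end. Their widest gap between summits was 102941 bases. The PTPRD peaks lay in the downstream part only.

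In the noncoding members the outermost peaks spanned most of the gene bounds. The main-strand peaks spanned 87.9% of LINC01036, 89.1% of LOC105371657 and 80.7% of LOC102724858. Of 5 equal parts by coordinate, the third held 9 of the 19 in LOC105371657, and the last 2 held 5 and 4 of the 11 in LOC102724858. The density was 6.27 peaks per 100 kb in LOC102724858, 4.61 in ULK4, 4.49 in LINC01036, 4.41 in LOC105371657, 3.40 in KCNT2 and 0.740 in PTPRD. The 303 others had a median of 4.04 (quartiles 2.76 and 5.77), so PTPRD alone was below their lowest, 0.803.

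Spacing was widest in PTPRD and closest in ULK4. The median distance between neighbouring summits on a strand was 28006 bases in PTPRD, 24523 in KCNT2, 14204 in LOC105371657, 14129 in LINC01036, 6617 in LOC102724858 and 4995 in ULK4 over both strands. Over all 6 genes the median of 98 distances was 13.0 kb (95% binomial interval 8.21 to 19.8 kb), against 14288 bases over 4637 distances in the others. ULK4 and LOC102724858 were thus more closely spaced than that median, PTPRD and KCNT2 more widely, and the other two members near it.

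**Figure D3:**
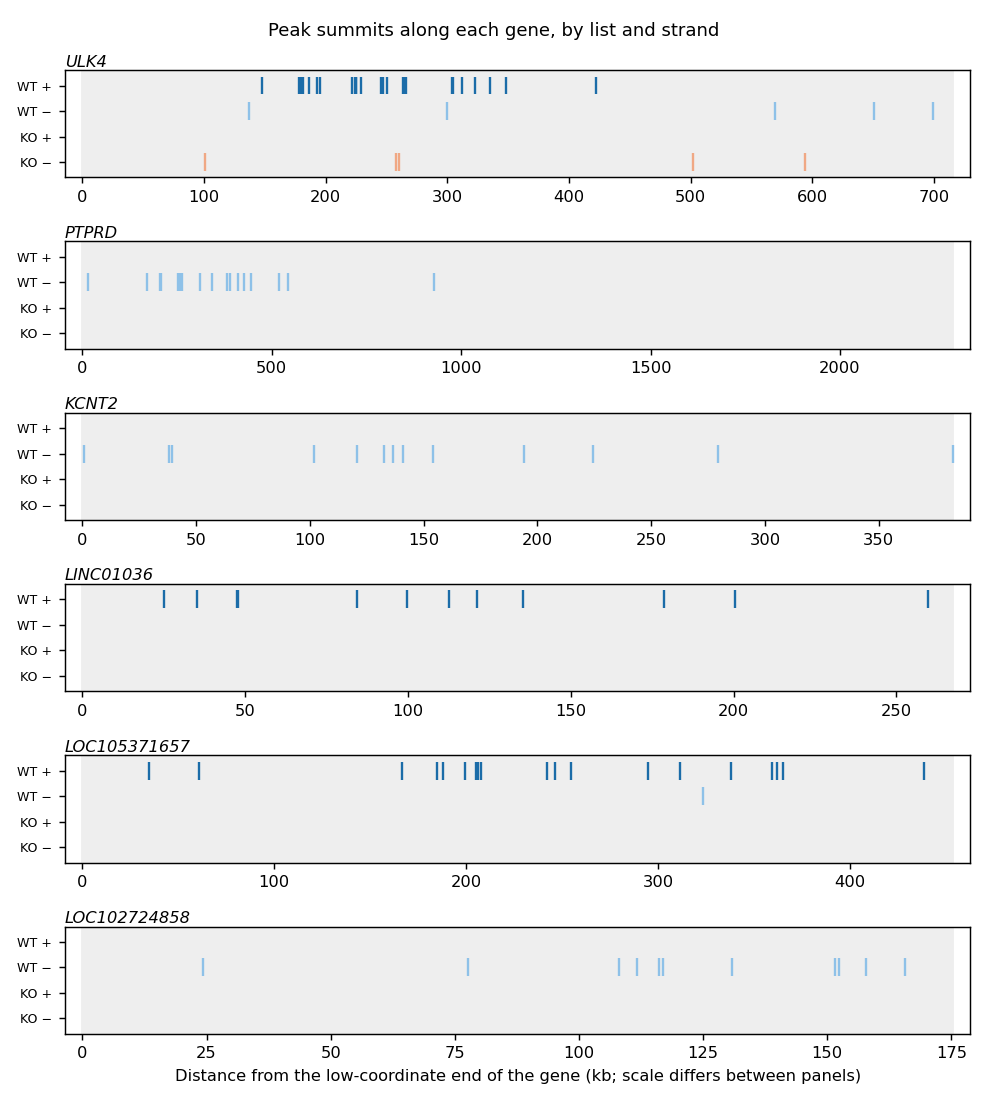
Summits of the peaks along each of the 6 genes as vertical ticks, by distance in kb from the low-coordinate end (horizontal axis, with a scale of its own in each panel); rows give the wild-type (WT) and knockout (KO) lists by strand, and grey is the gene. The ULK4 plus-strand block covers 275 kb, the PTPRD peaks crowd at the low-coordinate end, and only ULK4 has ticks in a knockout row.

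The strength of the wild-type peaks was not used by the rule. Fold here is the authors' own summit value, a ratio of IP to local input. It had a median of 7.07 in the members (quartiles 6.27 and 8.52). It was 7.29 over all wild-type peaks and 7.35 in the other genes with 11 or more. The median −log10 q was 8.52 in the members, 9.56 over all wild-type peaks and 9.88 in those other genes. Member peaks were thus of middling fold and of somewhat lower −log10 q than the list, a description without a test, since peaks of a gene are not replicates. Their median width was 202 bases, against 204 over the list.

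Among the genes, LOC102724858 had the highest median fold, 8.52, and KCNT2 the lowest, 6.36. LINC01036 had 7.71, LOC105371657 7.61, ULK4 7.18 and PTPRD 6.82. The quartiles of each gene overlapped those of every other gene. The strongest single peak was in LOC105371657 at 189349146 to 189349397, with a fold of 19.3 on 46 reads, at percentile 99.3 of the wild-type list. That gene also held peaks at 189357239 to 189357749 (fold 15.7, 35 reads) and 189395912 to 189396299 (10.2, 32 reads).

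In PTPRD the highest folds were 15.1 at 8759380 to 8759901 (32 reads), 13.7 at 8521394 to 8521623 (28 reads) and 8.79 at 8518072 to 8518341 (29 reads). The first of these is the peak nearest the middle start shown above. In LOC102724858 they were 14.6 at 76263853 to 76264287 (38 reads), 12.1 at 76285571 to 76285837 (40 reads) and 10.0 at 76210936 to 76211150 (21 reads). In PTPRD 2 peaks thus stood well above the rest in fold.

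The highest fold in either KCNT2 or LINC01036 was 11.1. The KCNT2 peaks of highest fold were 11.1 at 196366675 to 196366877 (45 reads), 8.51 at 196327670 to 196327871 (28 reads) and 8.07 at 196379595 to 196379794 (18 reads). The LINC01036 ones were 10.2 at 187271341 to 187271540 (52 reads), 9.15 at 187140084 to 187140380 (27 reads) and 8.90 at 187352361 to 187352561 (18 reads). LINC01036 had the lowest top fold of the 6 genes.

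The number of IP reads at a summit was recovered from the deposited fold and p-value, for 105 of the 106 member peaks. The members' median was 20 reads (quartiles 15 and 32, lowest 7, highest 89), against 24 (15 and 42) over all wild-type peaks. By gene the median was 36.5 in LINC01036, 21 in ULK4 and in LOC102724858, 18 in KCNT2, 17.5 in LOC105371657 and 15 in PTPRD. LINC01036 alone was above the median of the list, and 55 of the 105 peaks had 20 or more reads.

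Local input, in the caller's scaled units, was also highest in LINC01036. Its median was 2.10 in LINC01036, 0.840 in KCNT2, 0.610 in LOC105371657, 0.560 in LOC102724858, 0.50 in ULK4 and 0.240 in PTPRD, against 0.820 over all wild-type peaks. The lowest input value that the caller used was met at 14 of the 105 peaks (13.3%, 95% interval 7.49 to 21.4) and at 15.6% of all wild-type peaks. Of these 14, 7 were in PTPRD, out of its 16 peaks with recovered reads, 4 in ULK4, 2 in KCNT2 and 1 in LOC105371657. PTPRD peaks thus stood on the least input of the 6 genes.

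The depth of the 2 lists differed. The knockout IP was recovered as 1.17-fold (plus strand) and 1.20-fold (minus strand) deeper than that of wild type, and its input as 0.923 and 0.918 of it. The part of depth in the members' counts was not tested.

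**Figure D4:**
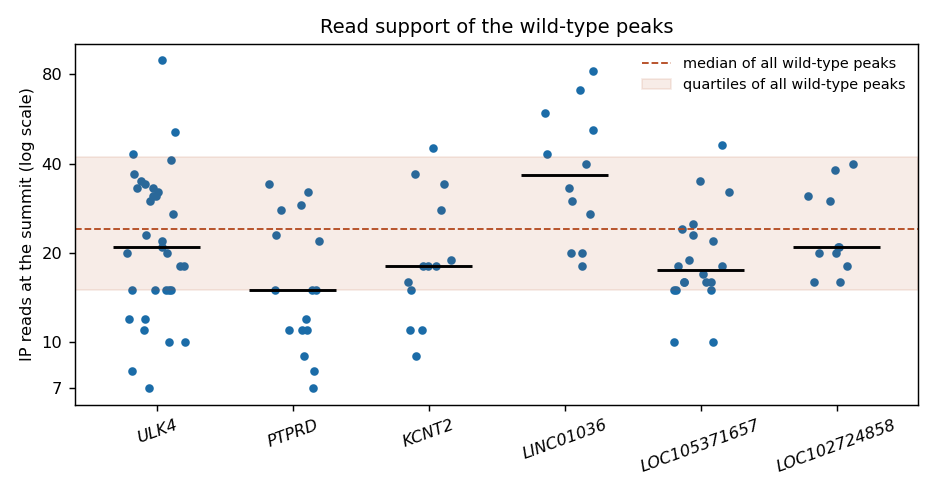
IP reads at the summit of each wild-type peak (vertical axis, log scale) for the 6 genes, with 1 point a peak, black bars at each gene's median, and the median (24, dashed) and quartiles (15 and 42, shaded) of all wild-type peaks. LINC01036 is the gene whose median, 36.5, lies above that of the list, and PTPRD has the lowest, 15.

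None of the 106 wild-type peaks had a knockout peak at the same place, meaning 1 bp or more of overlap on the same strand. This was bound to hold for 5 genes that had no knockout peak at all. It was also bound to hold for the 28 plus-strand peaks of ULK4, a strand on which the knockout list had 0 peaks there. Only the 5 minus-strand peaks of ULK4 could have had a partner. Lack of a partner was the usual state, since 79.6% of all wild-type peaks had none. With a knockout peak allowed within 1 kb, the count remained 0, which follows from the distances of 25078 bases or more given above.

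What lay around the members was not part of the rule. Of the peaks outside the 6 genes but within 1 Mb of their bounds, 124 were in wild type and 80 in the knockout, so that 39.2% (95% interval 32.5 to 46.3) were knockout peaks. The share was also taken by distance and strand. On the main strand it was 11.8% within 100 kb (2 of 17, interval 1.46 to 36.4), 33.3% from 100 to 500 kb (13 of 39, 19.1 to 50.2) and 43.6% from 500 to 1000 kb (34 of 78, 32.4 to 55.3). Around the 303 others it was 46.4%, 44.5% and 45.6% at these distances. On the opposite strand the members had 0 wild-type and 1 knockout peak within 100 kb, too few for a share. Farther out the share there was 22.7% from 100 to 500 kb (5 of 22) and 53.2% from 500 to 1000 kb (25 of 47). Between these classes it thus rose, as it did on the main strand. On the main strand the intervals of the nearest and the farthest class overlap, and the nearest rests on 17 peaks. The difference was not tested, since peaks of a locus are not independent.

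**Figure D5:**
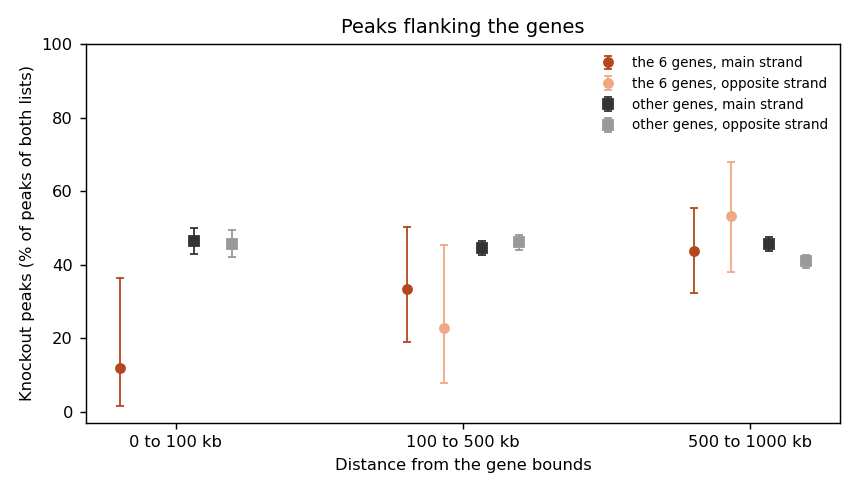
Knockout peaks as a percentage of the peaks of both lists (vertical axis) in 3 classes of distance from the gene bounds (horizontal axis), on the main and the opposite strand, for the 6 genes (circles) and the 303 others (squares), with 95% Clopper-Pearson intervals; a class with under 5 peaks is left out. Pooled over the 6 genes, the main-strand share goes from 11.8% within 100 kb to 43.6% beyond 500 kb. That of the others stays between 44.5% and 46.4%. PTPRD and LOC105371657 had no main-strand knockout peak in any class.

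The wild-type peaks of several members were part of longer stretches. A stretch here is a run of successive peaks on a strand, ordered by summit, that belong to the wild-type list with no knockout peak between them, so that a peak at its edge may overlap the knockout peak that ends it. There were 13708 wild-type stretches, of which 0.409% (56) held 11 or more peaks, while 17 of 13708 knockout stretches did. The wild-type list is the larger of the lists. The longest stretch of all was nevertheless a knockout one of 187 peaks, against 56 peaks in the longest wild-type stretch. The median wild-type stretch had 2 peaks. Since the members hold 11 or more main-strand peaks without a knockout peak, each had to lie in such a stretch. What the rule did not fix is how far these reach beyond the genes.

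LINC01036 and LOC105371657 lay in the same stretch, although 1790 kb separates them. It held 50 plus-strand peaks from 187077740 to 189756215 (2.68 Mb) and ranked 2 by number among all wild-type stretches. Its peaks fell in LOC105371657 (19), LINC01036 (12), LINC01037 (4) and in no annotated gene (15). The plus-strand knockout peaks on either side were 4.08 Mb apart, ending at 186988611 and starting at 191069820. With both strands counted the stretch held 51 wild-type peaks between knockout peaks that were 3.13 Mb apart.

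Genes on either side of that stretch did have knockout peaks. PLA2G4A, a cytosolic phospholipase A2 gene 104 kb below LINC01036, had 2 wild-type and 7 knockout peaks, all on the plus strand. BRINP3, 494 kb above LOC105371657, had 8 and 9, all on the minus strand. PDC-AS1 and PDC, further below, had 4 and 1 knockout peaks and 0 in wild type. At the low edge of the stretch, on the same strand, PLA2G4A thus had more knockout than wild-type peaks.

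PTPRD lay in the widest of the members' stretches, in a region with few peaks of either list. It held 34 minus-strand wild-type peaks from 6001105 to 13190360 (7.19 Mb), of which 17 were in PTPRD and 17 outside, and ranked 4. With both strands counted it held 28 peaks and ranked 6. Within 1 Mb of the gene there were 9 wild-type and 0 knockout peaks, and with both strands counted the nearest knockout peaks were 1195 kb below and 1723 kb above. PTPRD-AS1, inside the gene, was overlapped by 1 of the minus-strand peaks. KDM4C, a histone demethylase gene 1139 kb below, had 7 wild-type and 5 knockout peaks on the plus strand, and UHRF2 had 5 and 4. LURAP1L-AS1, 2087 kb above, had 0 and 2 on the plus strand, and MPDZ, 2493 kb above and on the minus strand, had 5 and 2. Genes with peaks in both lists thus stood more than 1 Mb away on both sides.

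The stretch of KCNT2 held 15 minus-strand peaks, 13 of them in the gene, and ranked 13. It began at 195928638, below the gene, and ended with the peak near the start at 196608310. With both strands counted it held the same number, 15. LOC124904597, within KCNT2, was overlapped by 3 of those 13. Among the neighbours LINC01724, 137 kb below, had 1 wild-type and 0 knockout peaks. Above the gene, ASPM, which acts at the mitotic spindle, had 3 and 4, ZBTB41 1 and 1, and DENND1B 6 and 8, all on the minus strand. In the 1 Mb on either side of KCNT2 knockout peaks made up 54.5% of 22 peaks, the highest share of the 6 loci.

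The antisense block in ULK4 lay between plus-strand peaks that the knockout list did hold. Below it, CTNNB1, which encodes β-catenin and ends 6.16 kb from ULK4, had 0 wild-type and 1 knockout peak on the plus strand. Above it, TRAK1 had 6 plus-strand wild-type peaks against 3 plus-strand and 1 minus-strand knockout peaks. The stretch held 29 peaks, 28 in ULK4 and the last in TRAK1, and ranked 7. With both strands counted it held 18 peaks over 114 kb, ranked 11, and was ended on both sides by minus-strand knockout peaks inside ULK4. For the plus-strand stretch of 29 peaks, the flanking plus-strand knockout peaks ended at 41226712 and began at 42059992. ZNF621 had 2 and 2 plus-strand peaks and ZNF620 3 and 1, at 707 kb and 728 kb below. The block was therefore bounded on both sides by genes with knockout peaks on the strand of the block.

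LOC102724858 was followed by a second run of wild-type peaks on the other strand. Its own stretch held 13 minus-strand peaks, 11 in the gene, and ranked 21. LOC107986952, 175 kb above, had 6 plus-strand wild-type peaks and 0 in the knockout, and ZFHX4-AS1 had 3 plus-strand and 1 minus-strand wild-type peaks and 0. The next gene, ZFHX4, a zinc finger homeobox gene, had 8 wild-type and 12 knockout peaks, all on the plus strand. With both strands counted the stretch held 22 wild-type peaks from 76157513 to 76676792, ranked 7, and ended at the knockout peaks of ZFHX4. Below the gene HNF4G had 1 and 1 peaks and CASC9 2 and 2.

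Relatives of the coding members were counted from family lists. Of 19 other receptor-type protein tyrosine phosphatase genes, 6 had peaks in both lists, 6 in wild type alone, 2 in the knockout alone and 5 in neither. Together they held 63 wild-type and 39 knockout peaks, so that 38.2% were knockout peaks. PTPRK had 17 and 13, PTPRG 18 and 12, PTPRA 7 and 3, PTPRM 6 and 5 and PTPRS 3 and 2. PTPRK equalled PTPRD in wild-type peaks yet had 13 knockout peaks. The 6 genes with peaks in wild type alone had 1 to 3 each.

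Binding partners of these phosphatases, among them the SLITRK, LRFN and IL1RAPL adhesion proteins and the liprins, held 23 wild-type and 31 knockout peaks over 15 genes. IL1RAPL1 had 11 and 9, PPFIA1 5 and 4, SLITRK5 4 and 2, PPFIA2 2 and 6, and LRFN5 0 and 9. Of the ULK family, ULK1, ULK2 and ULK3 had no peak in either list, and the related kinase gene STK36 had 1 and 1. KCNT1, KCNMA1 and KCNU1, the other Slo-family channel genes, had none. Within these 2 families KCNT2 and ULK4 thus held all but 2 of the peaks. Both were chosen for 11 or more wild-type peaks, so their lead follows from the rule. The 28 plus-strand peaks counted for ULK4 are antisense to it.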

How the data were processed

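Peaks came from 2 deposited lists, 1 for wild type and 1 for the METTL3 knockout. Per the submitters' processing notes, HISAT2 2.2.1, SAMtools 1.15.1 and MACS2 2.2.7.1 were used with build hg38; their settings and any pooling of replicates are not stated there. Per the labels' protocols, RNA of the chromosome fraction went through DNase, rRNA depletion and an m6A pull-down before stranded library preparation. Each deposited fold is a ratio of IP to local input, and the deposited −log10 p-value and −log10 q-value are the authors'. The deposited score was not used. The weakest peak had a −log10 q of 2.01 (wild type) or 2.02 (knockout).

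Peaks were assigned to genes, strand ignored, by 1 bp or more of overlap with RefSeq GRCh38.p14 bounds, which carry no exons, with Python 3.11.15, pandas 2.3.3, SciPy 1.17.1 and matplotlib 3.10.9. IP reads and local input were solved from fold, (IP + 1) / (input + 1), and the Poisson p-value, and accepted within 0.004 reads of a whole number where 1 solution remained. They were recovered for 95.2% to 98.9% of peaks by list and strand, and the method was tested on simulated data. These data were made with the same formulas and without peaks of the fewest reads. The test therefore did not check whether the caller used the formulas, nor the recovery at the fewest reads. Intervals cover counting error only.

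The members and gene lists were chosen with earlier results of these data known. Named were all members, METTL3, up to 3 neighbouring genes with a peak on either side, relatives with 5 or more peaks in all, the 5 non-members of lowest knockout share (1 of them is not reported here), the genes just outside the rule, and the 3 peaks of highest fold per gene. STK36 and relatives without peaks fall outside this rule and were named after their values were seen. Peaks per replicate, exons and sequence under the peaks were not analysed here.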

Additional observations from a re-analysis of the deposited data

How the results depend on the processing

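The knockout share of the members' peaks stayed within its interval under the other thresholds, summit assignment and added margins, from 2.13% to 5.88%. The rule chose the members by their peaks in the 2 lists, so this was largely fixed in advance and is no support for the contrast. The share was 0% on the main strand alone and 0% without ULK4, because all 5 knockout peaks lie on the minus strand of ULK4. Wild-type member peaks numbered 51 and knockout ones 2 at or above each list's median fold, knockout peaks numbered 2 at a −log10 q of at least 5 and 0 on the main strand, and other counts of both stayed within 1.5 times. The share on the main strand was 98.6% without ULK4, an alternative added after seeing the data. Of the wild-type peaks off the main strands, ULK4 holds 5 and LOC105371657 holds 1. Around the members, knockout peaks made up 26.6% within 500 kb and 45.0% within 2 Mb. Median fold (6.84 to 7.48) and spacing (12.9 to 13.6 kb) stayed within their intervals. Stretches counted on either strand, also added later, held 18 peaks at ULK4 and 22 at LOC102724858. For the other values that moved, the cause was not tested. No paired analysis was possible because neither list carries values per replicate, and leaving out replicates was not run for that reason. Read support limits single peaks most in PTPRD, with a median of 15 reads.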

Other observations

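The longest wild-type stretch of all lay in no annotated gene. It held 56 plus-strand peaks on chromosome 6 from 120009162 to 120683155, with the nearest plus-strand knockout peaks ending at 118999128 and starting at 121287955. The third by number held 44 minus-strand peaks on chromosome X from 124389664 to 126212517, of which 43 lay in an annotated gene, among them TENM1. On chromosome 13 a stretch of 33 plus-strand peaks, ranked just below that of PTPRD, had 2 of its peaks in a gene. These stretches were singled out after their values were seen, and no test was run on them.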
